A study of Homo sapiens with 9 samples.

Results

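The genes described are 10 that encode enzymes of glycolysis, with the isoenzymes of its early steps: HK1, HK2, GPI, PFKL, PFKM, PFKP, PFKFB3, ALDOA, ENO1 and LDHA. They were taken by name from a fixed list, and all probe sets that the annotation assigns to a single one of them were used. That gave 14 of 22215 probe sets and 10 of 12165 genes; HK2, PFKL, ALDOA and ENO1 had 2 probe sets each and the other members 1. Expression was measured on Affymetrix oligonucleotide arrays in LNCaP, a line from a lymph node metastasis of prostate cancer whose growth and secretory genes respond to androgen. The 3 groups had 3 arrays each, labelled as biological replicates. The androgen plus celastrol cells received 1 nM R1881, a synthetic androgen, together with 1.25 µM celastrol, a triterpenoid from a medicinal vine. The androgen cells received 1 nM R1881 with DMSO, the solvent, and no celastrol. The vehicle cells received the solvents ethanol and DMSO and neither compound; the labels name no solvent for the androgen plus celastrol cells. All cells had first been kept for 2 days in medium with 10% charcoal-stripped serum, which is poor in steroids. Treatment lasted 24 h in every group by the sample descriptions, whereas the titles of the androgen arrays give 6 h. If the titles are right, exposure time differs together with treatment in each comparison with the androgen arrays, and the parts of treatment and time cannot be told apart.

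Glycolysis turns glucose into pyruvate and yields ATP without oxygen. Hexokinases trap glucose in the cell, phosphofructokinase commits the sugar to the pathway, and lactate dehydrogenase returns the NAD+ that the pathway consumes. Several steps have isoenzymes encoded by separate genes that tissues use in different proportions, and many of these genes are induced in low oxygen through hypoxia-inducible factor. The comparisons ask how androgen altered these transcripts and what celastrol did to them in its presence.

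The summed intensity of the LNCaP markers (7 of 9 measured) was 37083 to 40535 on the androgen plus celastrol arrays, 50262 to 53689 on the androgen arrays and 27159 to 28245 on the vehicle arrays. Under androgen 5 of these 7 rose and FOLH1 fell (-0.51 on the log2 scale, limma adjusted p = 0.00204). HOXB13 did not pass 0.05 (-0.42, adjusted p = 0.116), but fell when vehicle replicate 3 was left out (-0.53, adjusted p = 0.0405). Over all genes 6.71% rose and 5.35% fell. The sum thus did not move as each marker did. KLK3, which encodes prostate-specific antigen, averaged 7660 ± 423 with androgen plus celastrol, 13770 ± 312 with androgen and 3107 ± 142 with vehicle (SD, n = 3 each). Markers of basal epithelium, fibroblasts, leukocytes and endothelium (11 of 13 measured) had group means of 25.6 to 113 intensity units, the highest being VWF in vehicle cells. Apart from VWF, none had a group mean above 73.0, while array medians over all probe sets were 72.2 to 80.2. Values this low do not show that such cells were present. Basal markers summed to 57.1 to 64.2 with androgen plus celastrol, 68.9 to 97.8 with androgen and 68.3 to 123 with vehicle. Fibroblast markers summed to 179 to 211 with androgen plus celastrol, 167 to 179 with androgen and 194 to 231 with vehicle. Leukocyte markers overlapped between the groups, at 66.5 to 78.1 with androgen plus celastrol, 63.3 to 72.7 with androgen and 65.1 to 70.8 with vehicle. Endothelial markers were highest with vehicle (95.2 to 145 with androgen plus celastrol, 101 to 130.3 with androgen and 167 to 233 with vehicle), and VWF fell under androgen (-1.13 ± 0.14 on the log2 scale, SE) as did the fibroblast collagen COL3A1 (-0.43 ± 0.10). The part of these markers in the results was not tested. Vehicle replicate 3 stood apart: the SD of its log2 deviations from its group mean over all probe sets was 0.31, and at most 0.21 on any other array. In bulk RNA, fewer cells of a kind and less RNA per cell cannot be told apart, and the p-values measure only the spread between these cultures.

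The promoters of HK2, ALDOA, ENO1 and LDHA are shown because HK2 rose under androgen by its brighter probe set, ALDOA rose with celastrol, and ENO1 and LDHA are later steps whose arrays separated with celastrol. Neither ENO1 nor LDHA passed against androgen (limma adjusted p = 0.0915 and 0.118). Arrays of HK1 and PFKP separated there as well, as did those of 35.9% of all genes. Each sequence is the 250 bases before the most upstream start that RefSeq lists on GRCh38.p14, and which start these cells use is not known. Capitals mark the motifs searched on both strands: ACGTG and GCGTG, cores of the hypoxia response element, CACGTG, an E-box that contains ACGTG on either strand, and TGTTCT, a half-site of the androgen response element. HK2 lies at chr2:74833877-74834126 on the plus strand, ALDOA at chr16:30064029-30064278 on the plus strand, ENO1 at chr1:8878687-8878936 on the minus strand and LDHA at chr11:18394313-18394562 on the plus strand.
HK2: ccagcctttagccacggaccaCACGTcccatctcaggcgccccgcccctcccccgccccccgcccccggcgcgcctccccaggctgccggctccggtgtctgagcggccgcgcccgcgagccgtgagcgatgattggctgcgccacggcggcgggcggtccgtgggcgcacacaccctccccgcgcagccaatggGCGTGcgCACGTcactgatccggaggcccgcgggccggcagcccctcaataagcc
ALDOA: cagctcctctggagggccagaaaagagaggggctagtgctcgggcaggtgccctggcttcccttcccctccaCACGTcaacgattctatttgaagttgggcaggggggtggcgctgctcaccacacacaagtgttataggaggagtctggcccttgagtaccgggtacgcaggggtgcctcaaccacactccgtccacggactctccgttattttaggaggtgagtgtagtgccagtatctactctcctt
ENO1: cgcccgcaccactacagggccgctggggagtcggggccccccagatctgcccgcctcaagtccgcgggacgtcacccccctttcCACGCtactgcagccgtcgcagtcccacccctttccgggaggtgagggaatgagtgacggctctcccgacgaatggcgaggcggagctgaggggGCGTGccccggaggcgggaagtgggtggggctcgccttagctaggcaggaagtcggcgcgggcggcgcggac
LDHA: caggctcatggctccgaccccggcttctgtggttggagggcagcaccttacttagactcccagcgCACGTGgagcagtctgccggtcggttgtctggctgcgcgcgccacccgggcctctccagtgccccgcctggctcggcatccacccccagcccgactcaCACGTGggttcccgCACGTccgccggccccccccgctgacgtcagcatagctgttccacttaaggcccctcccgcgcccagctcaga
The HK2 window holds 2 matches to ACGTG and 1 to GCGTG, the ALDOA window 1 to ACGTG, the ENO1 window 2 to GCGTG, and the LDHA window 5 to ACGTG, of which 2 CACGTG motifs give 2 each. Other windows of these genes differ. Of the 3 ALDOA windows 2 hold TGTTCT and 1 CACGTG, neither being in the window shown. Of the 2 HK2 windows 1 holds CACGTG, not the one shown, and 0 hold TGTTCT. HK1 and PFKM, also called under androgen, are not shown. Of the 7 HK1 windows 0 hold ACGTG, 1 GCGTG, 0 CACGTG and 0 TGTTCT. Of the 7 PFKM windows 1 holds ACGTG, 0 GCGTG, 0 CACGTG and 0 TGTTCT. Over the 30 windows that RefSeq lists for the members, 10 hold ACGTG, 8 GCGTG, 4 CACGTG and 3 TGTTCT. The windows with TGTTCT are 2 of ALDOA and 1 of GPI. Windows of the same gene can overlap each other. Of all 35116 windows of this length, 18.5% hold ACGTG, 32.2% GCGTG, 6.34% CACGTG and 12.4% TGTTCT. A match is a description of the letters and not a binding site.

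Androgen raised HK1 and, by the brighter of its 2 probe sets, HK2, and lowered PFKM, the muscle-type phosphofructokinase. GPI, PFKL, PFKP, PFKFB3 and the members downstream of fructose bisphosphate did not pass the test. Of the 10 members 2 rose (HK1 and HK2), 1 fell (PFKM) and 7 did not pass (limma, adjusted p below 0.05 over all 22215 probe sets), while 6.71% of all genes rose and 5.35% fell. Arrays of the groups did not overlap for 6 members, and for 28.3% of all genes. The median log2 fold change was 0.09 over the members and -0.04 over all genes. When each array's median was subtracted, the called probe sets split into 1821 higher and 738 lower, against 1341 higher and 992 lower as deposited.

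With celastrol added to androgen, ALDOA alone among the members passed the test against androgen. HK1, PFKM and, by its brighter probe set, HK2 also passed against vehicle, HK1 not under a replicate block within those groups (adjusted p = 0.0612). Against androgen 1 member rose, none fell and 9 did not pass, while 8.13% of all genes rose and 6.60% fell; arrays did not overlap for 5 members and for 35.9% of all genes. Against vehicle 5 rose (HK1, HK2, PFKFB3, ALDOA and ENO1), 1 fell (PFKM) and 4 did not pass, while 12.6% of all genes rose and 9.30% fell; arrays did not overlap for 8 members and for 37.2% of all genes. Median log2 fold changes over the members and over all genes were 0.003 and 0.02 against androgen, and 0.18 and -0.01 against vehicle. Without vehicle replicate 3 the members called numbered 3, 1 and 6 for androgen against vehicle, celastrol against androgen and androgen plus celastrol against vehicle, the same numbers as with it. The 3 comparisons share arrays and are not independent of each other.

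**Figure D1:**
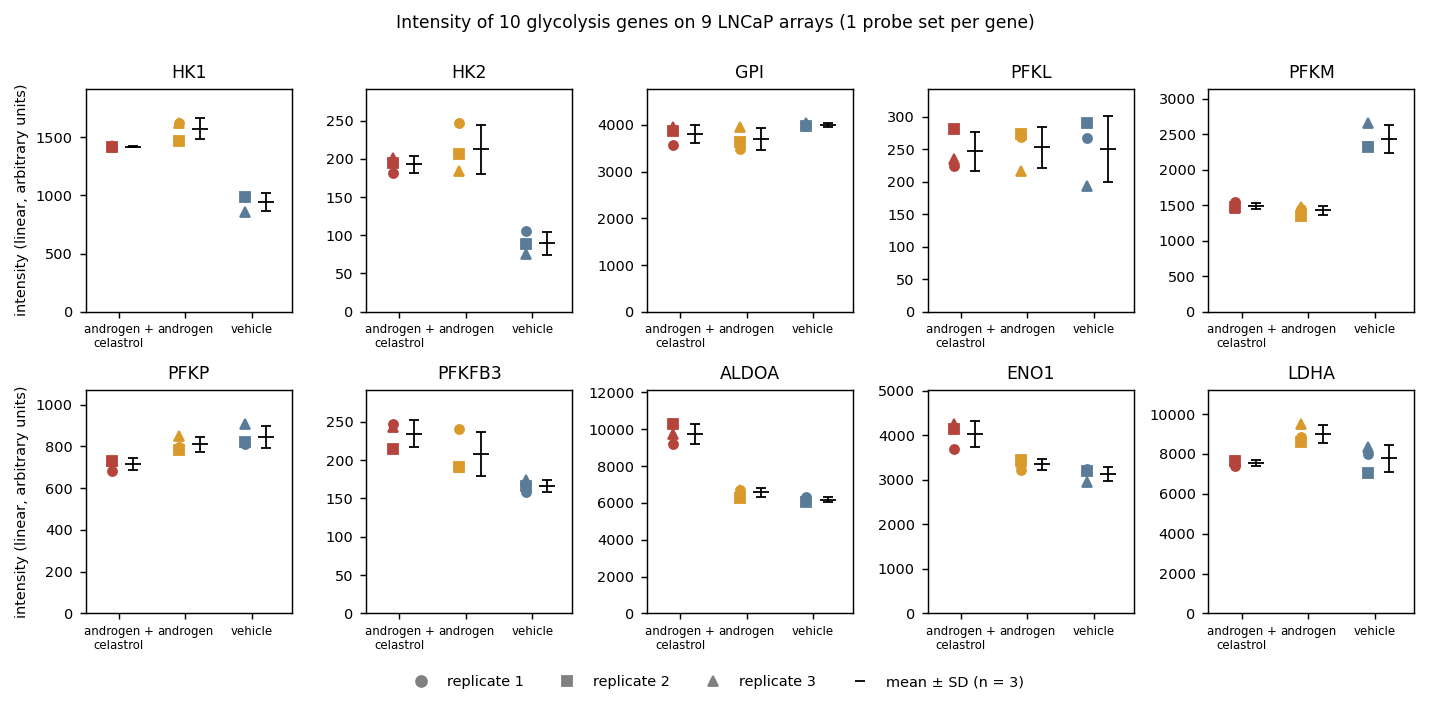
Intensity (linear, arbitrary units, axis from 0) of each member's probe set with the highest mean, by group; points are the 9 arrays with a symbol per replicate number, bars the mean ± SD (n = 3). HK1 and HK2 are lowest and PFKM highest on all 3 vehicle arrays, and ALDOA is highest on all 3 androgen plus celastrol arrays.

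HK1, the hexokinase found in most tissues, had intensities of 1419, 1419 and 1425 with androgen plus celastrol, 1627, 1469 and 1624 with androgen, and 988, 984 and 856 with vehicle. No array overlapped another group: androgen was highest and vehicle lowest. Androgen raised HK1 by 0.74 ± 0.09 on the log2 scale (SE, adjusted p = 0.000664), a 1.67-fold rise, and androgen plus celastrol stood 0.60 ± 0.09 above vehicle (adjusted p = 0.00152, but 0.0612 with a replicate block within these groups). Against androgen alone the celastrol difference was -0.15 ± 0.09 and did not pass (adjusted p = 0.395).

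HK2, the inducible hexokinase of muscle, fat and many tumours, had intensities of 181, 195 and 202 with androgen plus celastrol, 247, 207 and 184 with androgen, and 105, 88.6 and 74.9 with vehicle. All 6 arrays with androgen lay above the vehicle arrays, and those with and without celastrol overlapped. The vehicle values lay near the medians of those arrays over all probe sets (78.9, 80.2 and 77.3), a low reference for a fold. Androgen raised HK2 2.38-fold (log2 1.25 ± 0.15, adjusted p = 0.000607), by this brighter of its probe sets, and androgen plus celastrol stood 1.12 ± 0.15 above vehicle (adjusted p = 0.000774). The celastrol difference from androgen was -0.13 ± 0.15 (adjusted p = 0.678, 95% interval -0.47 to 0.20).

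The dimmer HK2 probe set gave another picture, with 74.8, 92.6 and 89.8 in androgen plus celastrol cells, 127, 105 and 80.9 in androgen cells, and 88.8, 89.8 and 133 in vehicle cells. All 3 groups overlapped. Its log2 changes were 0.01 ± 0.20 for androgen against vehicle (adjusted p = 0.989) and -0.26 ± 0.20 for androgen plus celastrol against vehicle (adjusted p = 0.432). With both probe sets averaged, the HK2 values were 0.63 (adjusted p = 0.0139) and 0.43 (adjusted p = 0.0486), still past the threshold. The HK2 rise is thus that of 1 of its probe sets.

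GPI, which turns glucose 6-phosphate into fructose 6-phosphate, measured 3579, 3868 and 3952 with androgen plus celastrol, 3488, 3633 and 3957 with androgen, and 3972, 3966 and 4049 with vehicle. The vehicle arrays were the highest, by a narrow margin, and the other groups overlapped. No comparison passed: androgen against vehicle was -0.12 ± 0.08 (adjusted p = 0.533, 95% interval -0.30 to 0.07) and celastrol against androgen 0.04 ± 0.08 (adjusted p = 0.834, interval -0.15 to 0.23). The sign of the celastrol difference turned under quantile normalization.

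Of the phosphofructokinase subunits, which make fructose 1,6-bisphosphate, PFKM alone passed the test. PFKM, the muscle-type subunit, had 1542, 1468 and 1465 with androgen plus celastrol, 1449.5, 1354 and 1479.8 with androgen, and 2329, 2319 and 2662 with vehicle. Every vehicle array lay above every array of the other groups, which overlapped each other. PFKM fell by 0.77 ± 0.09 under androgen (log2, adjusted p = 0.000481), to 0.587 of the vehicle level, and androgen plus celastrol stood at -0.71 ± 0.09 against vehicle (adjusted p = 0.000529). Celastrol against androgen gave 0.06 ± 0.09 (adjusted p = 0.746, interval -0.13 to 0.26).

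PFKP, the platelet-type subunit, had 682, 730.3 and 730.3 with androgen plus celastrol, 797, 782 and 849 with androgen, and 809.8, 823 and 905 with vehicle. The androgen plus celastrol arrays were the lowest of the 9, and the other groups overlapped. The differences missed the threshold: -0.18 ± 0.08 for androgen plus celastrol against androgen (adjusted p = 0.235), -0.24 ± 0.08 against vehicle (adjusted p = 0.0763) and -0.06 ± 0.08 for androgen against vehicle (adjusted p = 0.764).

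PFKL, the liver-type subunit, had 224, 281 and 236 with androgen plus celastrol, 269.5, 274 and 217 with androgen, and 267, 291 and 193 with vehicle. The groups overlapped throughout, and vehicle replicate 3 was the lowest array. The log2 changes were 0.03 ± 0.17 for androgen against vehicle (adjusted p = 0.951, interval -0.36 to 0.42) and -0.04 ± 0.17 for celastrol against androgen (adjusted p = 0.936). The second PFKL probe set measured 206, 247 and 283 with androgen plus celastrol, 254, 252 and 240.4 with androgen, and 261, 336 and 113 with vehicle, where replicate 3 was again lowest. It passed in no comparison (adjusted p of 0.815 for androgen against vehicle, 0.972 for celastrol against androgen and 0.756 for androgen plus celastrol against vehicle). The direction of PFKL is not settled by these arrays, since it turned when single arrays were left out.

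**Figure D2:**
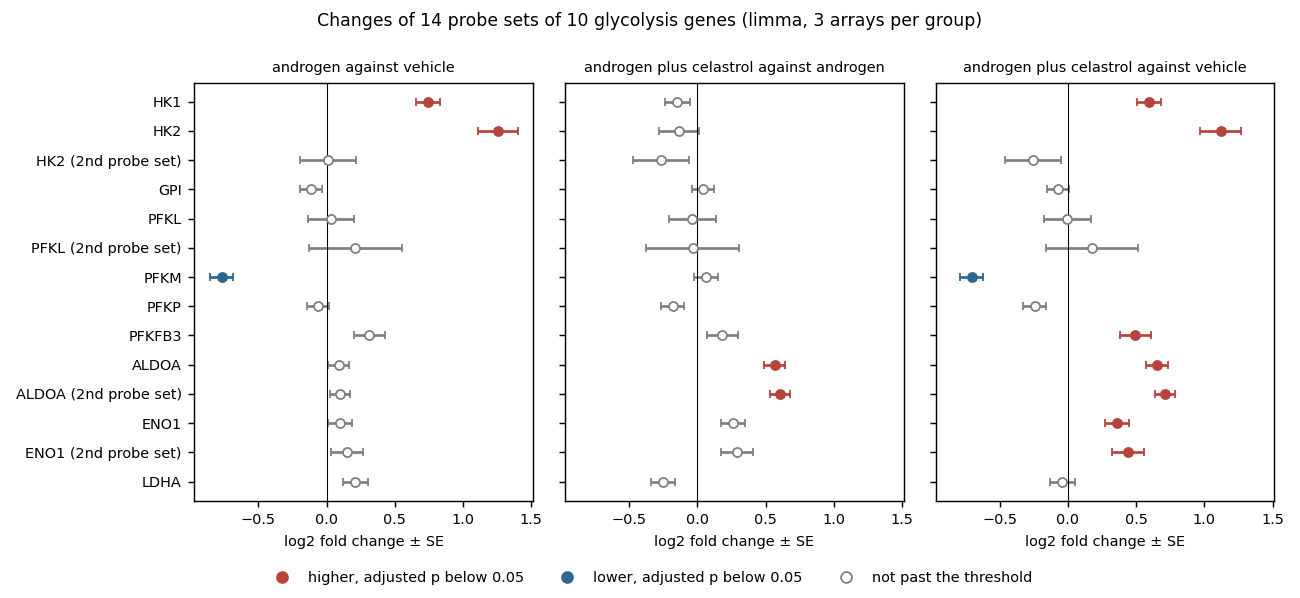
Log2 fold change ± SE of each of the 14 probe sets in the 3 comparisons (limma, 3 arrays per group; red higher, blue lower, open not past adjusted p of 0.05). HK1, the brighter HK2 probe set and PFKM keep their places in both comparisons with vehicle, which share the vehicle arrays, and both ALDOA probe sets are past the threshold in both comparisons that involve celastrol.

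PFKFB3 encodes an enzyme that makes fructose 2,6-bisphosphate, the strongest activator of phosphofructokinase. It had 246, 214 and 243 with androgen plus celastrol, 240.4, 191 and 191 with androgen, and 158, 166 and 174 with vehicle. All arrays with androgen lay above those with vehicle. Only androgen plus celastrol against vehicle passed, with a 1.41-fold rise (log2 0.49 ± 0.11, adjusted p = 0.0146); the adjusted p was 0.0540 without androgen plus celastrol replicate 3, 0.0546 without vehicle replicate 1 and 0.0782 after quantile normalization. Androgen against vehicle gave 0.31 ± 0.11 (adjusted p = 0.143) and celastrol against androgen 0.18 ± 0.11 (adjusted p = 0.405).

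Within each array, the log2 difference between isoenzymes shows whether they changed unequally. HK2 minus HK1 averaged -2.90 ± 0.22 with androgen and -3.41 ± 0.15 with vehicle (SD, n = 3 each), so that HK2 gained 0.51 on HK1, without overlap. In an exact two-sided permutation test p was 0.1, the smallest that 3 arrays against 3 allow, and the adjusted value over 12 tests was 0.171. With both HK2 probe sets averaged, the gain became -0.11. Celastrol against androgen moved this ratio by 0.01 (exact p = 0.9, adjusted 0.9).

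PFKP minus PFKM averaged -1.06 ± 0.10 with androgen plus celastrol, -0.82 ± 0.04 with androgen and -1.53 ± 0.03 with vehicle. None of these groups overlapped: PFKP gained 0.71 on PFKM under androgen, and androgen plus celastrol stood 0.24 below androgen and 0.46 above vehicle. PFKL minus PFKM was likewise higher with androgen plus celastrol (-2.60 ± 0.20) and with androgen (-2.50 ± 0.24) than with vehicle (-3.30 ± 0.42). Each of these non-overlapping differences had an exact p of 0.1, adjusted 0.171, so that none could pass. PFKL minus PFKM overlapped between androgen plus celastrol and androgen (exact p = 0.7), and PFKP minus PFKL in all 3 comparisons (exact p of 0.6 to 0.7, adjusted 0.764).

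**Figure D3:**
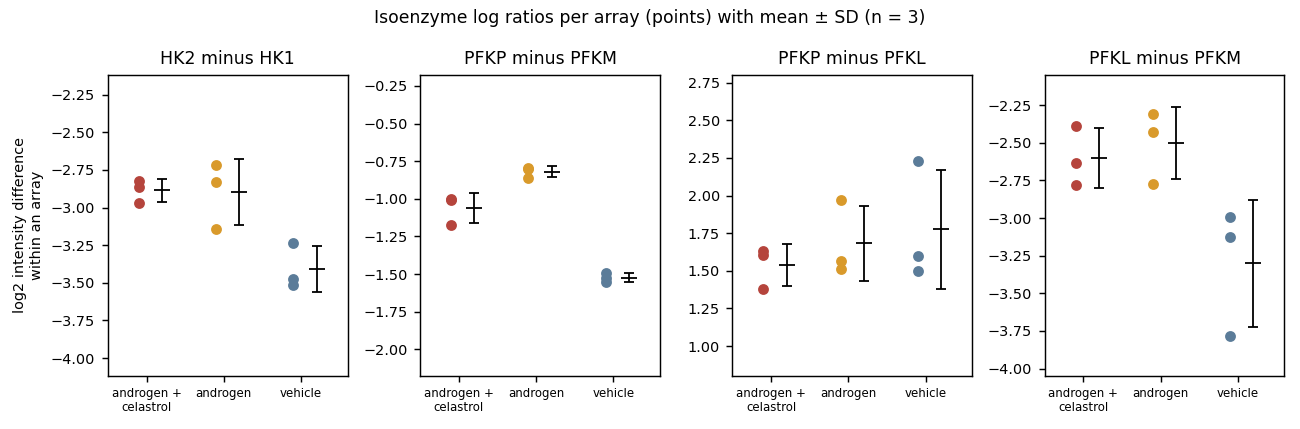
Log2 intensity difference between isoenzymes within each array (points) with mean ± SD (n = 3) by group. The vehicle arrays lie lowest for HK2 minus HK1, PFKP minus PFKM and PFKL minus PFKM; the zero of each axis has no meaning across probe sets, and only differences between groups can be read.

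ALDOA, the main aldolase outside liver, splits fructose 1,6-bisphosphate into triose phosphates. Its intensities were 9203, 10267 and 9737 with androgen plus celastrol, 6706, 6295 and 6706 with androgen, and 6332, 6055 and 6163 with vehicle. Every androgen plus celastrol array lay above the other 6, which overlapped between groups. Celastrol raised ALDOA 1.48-fold over androgen (log2 0.57 ± 0.08, adjusted p = 0.00183), and androgen plus celastrol stood 1.57-fold above vehicle (0.65 ± 0.08, adjusted p = 0.000468). Androgen against vehicle gave 0.09 ± 0.08 (adjusted p = 0.636).

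The second ALDOA probe set had 9739, 10099 and 9948 with androgen plus celastrol, 6774, 6184 and 6591 with androgen, and 6116, 6055 and 6055 with vehicle. Its androgen plus celastrol arrays were again the highest, and here the androgen arrays also lay above the vehicle arrays. It had rises of 0.61 ± 0.07 over androgen (adjusted p = 0.000907) and 0.71 ± 0.07 over vehicle (adjusted p = 0.000201). Both ALDOA probe sets are of the class that can also match other transcripts, and ALDOA, ENO1 and LDHA have near-identical pseudogene copies, so that part of their signal may come from other genes.

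ENO1, the enolase of most tissues, makes phosphoenolpyruvate. Its intensities were 3697, 4127 and 4243 with androgen plus celastrol, 3209.8, 3440.4 and 3397 with androgen, and 3249, 3193 and 2959 with vehicle. The androgen plus celastrol arrays were the highest 3, and the other groups overlapped. Against vehicle ENO1 rose 1.28-fold (log2 0.36 ± 0.09, adjusted p = 0.0186), while the difference from androgen, 0.26 ± 0.09, missed the threshold (adjusted p = 0.0915). The rise against vehicle no longer passed without androgen plus celastrol replicate 2 (adjusted p = 0.0644) or replicate 3 (0.0684), and also not after quantile normalization (0.0503) or with the 6 arrays of these groups alone (0.0612).

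The second ENO1 probe set had 3545, 3768 and 4074 with androgen plus celastrol, 2973, 3188 and 3133 with androgen, and 2950.5, 3128 and 2362 with vehicle. Its changes were 0.44 ± 0.12 against vehicle (adjusted p = 0.0280) and 0.29 ± 0.12 against androgen (adjusted p = 0.166). Androgen against vehicle passed for neither ENO1 probe set, at 0.10 ± 0.09 (adjusted p = 0.633) and 0.15 ± 0.12 (adjusted p = 0.576).

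LDHA encodes the M subunit of lactate dehydrogenase, which reduces pyruvate to lactate. It had 7374, 7622 and 7657 with androgen plus celastrol, 8865, 8612 and 9482 with androgen, and 7973, 7037 and 8333 with vehicle. The androgen arrays were the highest 3, and the other groups overlapped. Neither difference passed: 0.21 ± 0.09 for androgen against vehicle (adjusted p = 0.222) and -0.25 ± 0.09 for celastrol against androgen (adjusted p = 0.118, interval -0.45 to -0.05). Androgen plus celastrol and vehicle differed by -0.04 ± 0.09 (adjusted p = 0.793). ALDOA and ENO1 on one side and LDHA on the other thus had celastrol differences of opposite sign, of which that of ALDOA passed.

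Among the called members, HK2 alone changed at least 2-fold by its brighter probe set; with its probe sets averaged (0.63 under androgen and 0.43 for androgen plus celastrol against vehicle, log2) no called member did. Of 1467 genes called for androgen against vehicle, 369 changed at least 2-fold, and of the members HK2 by that probe set. Of 1792 called for celastrol against androgen, 314 changed at least 2-fold, and no member did. Of 2669 called for androgen plus celastrol against vehicle, 580 did, with HK2 by that probe set the member among them.

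Among 19 other glycolytic enzymes measured (of 22 listed), 2 rose, 1 fell and 16 did not pass under androgen, with a median log2 change of -0.12. PFKFB2, which like PFKFB3 sets the level of fructose 2,6-bisphosphate, averaged 166 ± 15.0 with androgen plus celastrol, 238 ± 31.4 with androgen and 103 ± 11.6 with vehicle. It rose by 1.21 ± 0.13 under androgen (adjusted p = 0.000386) and fell by 0.51 ± 0.13 when celastrol was added (adjusted p = 0.0334), where the uncalled PFKFB3 value was 0.18. ADPGK, an enzyme that phosphorylates glucose with ADP, rose by 0.79 ± 0.17 under androgen (adjusted p = 0.0188), and ENO2, the neuronal enolase, fell by 1.10 ± 0.27 (adjusted p = 0.0302). Over all genes 6.71% rose and 5.35% fell. Without vehicle replicate 3, 2 of the 19 fell, the muscle enolase ENO3 being added (-0.50, adjusted p = 0.0240, against -0.30 and 0.396 with it).

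With celastrol against androgen, 2 of these 19 rose and 1 fell, with a median of 0.12, while 8.13% of all genes rose and 6.60% fell. ALDOC, the brain-type aldolase, averaged 1236 ± 52.7 with androgen plus celastrol, 721 ± 9.27 with androgen and 804 ± 120 with vehicle. It rose by 0.78 ± 0.11 over androgen (adjusted p = 0.00249), beside the ALDOA rise. BPGM, which makes 2,3-bisphosphoglycerate, rose by 0.57 ± 0.08 (adjusted p = 0.00150). GAPDH, which makes 1,3-bisphosphoglycerate, the substrate of BPGM, had 0.24 ± 0.07 (adjusted p = 0.0665), and LDHB, the other main lactate dehydrogenase subunit, -0.06 ± 0.07 (adjusted p = 0.719). Without vehicle replicate 3, 5 of the 19 rose, GAPDH (adjusted p = 0.0392), ENO2 (0.000809) and ENO3 (0.00618) being added.

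Against vehicle, androgen plus celastrol raised 4 of the 19 (ADPGK, PFKFB2, ALDOC and BPGM, by 0.88, 0.69, 0.63 and 0.31) and lowered none, with a median of 0.06, while 12.6% of all genes rose and 9.30% fell. ENO2 was at -0.23 (adjusted p = 0.591), and without vehicle replicate 3 it fell (-0.60, adjusted p = 0.00724). The shares of all genes given for each comparison are the background of the following lists too. Of 13 glucose, lactate and pyruvate carriers measured (of 16; SLC2A12, SLC16A1 and SLC16A3 were not analysed here), androgen raised 2 and lowered none. They were SLC2A3, a glucose transporter (0.66 ± 0.11, adjusted p = 0.00495), and MPC2, a subunit of the mitochondrial pyruvate carrier (0.88 ± 0.09, adjusted p = 0.000235). Celastrol against androgen raised its partner MPC1 by 0.80 ± 0.08 (adjusted p = 0.000264), while MPC2 fell by 0.38 ± 0.09 (adjusted p = 0.0230). The median change of the carriers was -0.04 under androgen and -0.03 with celastrol against androgen.

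Against vehicle, 4 carriers rose and 1 fell, with a median of 0.10. The glucose transporter SLC2A1 was among those that rose (0.68 ± 0.13, adjusted p = 0.00730), and BSG, a chaperone of lactate carriers, fell (-0.51 ± 0.14, adjusted p = 0.0278). Downstream of LDHA's substrate, 10 pyruvate dehydrogenase genes were measured (of 11). Androgen lowered 1 of them (PDP1, a phosphatase that activates the complex, -0.42 ± 0.11, adjusted p = 0.0420) and raised none, with a median of -0.05. Celastrol against androgen lowered 1 (PDHB, an E1 subunit, -0.50 ± 0.08, adjusted p = 0.00405) and raised none. Against vehicle, PDHX rose (0.31 ± 0.07, adjusted p = 0.0168) and PDHB fell (-0.62 ± 0.08, adjusted p = 0.000746), with a median of -0.08. Without vehicle replicate 3 the kinase PDK3 also fell (-0.79, adjusted p = 0.04996, against -0.49 and 0.282 with it).

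Of 10 genes of gluconeogenesis or restraint of glycolysis, TXNIP, which limits glucose uptake, had 751 ± 44.0 with androgen plus celastrol, 1149 ± 20.6 with androgen and 2532 ± 47.4 with vehicle. It fell in all 3 comparisons, with log2 changes of -1.14 ± 0.08 under androgen (adjusted p = 2.22e-05), -0.61 ± 0.08 with celastrol against androgen (adjusted p = 0.00108) and -1.75 ± 0.08 with androgen plus celastrol against vehicle (adjusted p = 3.06e-06). PCK2, the mitochondrial phosphoenolpyruvate carboxykinase, rose by 1.15 ± 0.11 over androgen (adjusted p = 0.000271). These were the only genes of the list past the threshold: 1 fell under androgen, and 1 rose and 1 fell in each comparison of androgen plus celastrol. The medians were -0.01 under androgen, -0.04 with celastrol against androgen and 0.01 with androgen plus celastrol against vehicle.

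Of 16 hypoxia-responsive genes outside glycolysis (of 18, as CA9 and ANKRD37 were not analysed here), androgen raised 3 and lowered 5, with a median of -0.14. The list and its counts include genes for subunits of hypoxia-inducible factor itself, HIF1A and EPAS1 among them. NDRG1, a stress-response gene, rose by 3.28 ± 0.09 (adjusted p = 4.67e-07), and ADM, the vasodilator adrenomedullin, fell by 1.36 ± 0.12 (adjusted p = 0.000121). BHLHE40, another gene of this list, rose by 2.05 (adjusted p = 0.000174). Celastrol against androgen raised 7 and lowered 3, with a median of 0.39 against 0.02 over all genes, of which 8.13% rose and 6.60% fell. Here ADM rose by 1.83 ± 0.12 (adjusted p = 4.93e-05) and P4HA2, a collagen prolyl hydroxylase, by 1.02 ± 0.23 (adjusted p = 0.0187). In the other direction, BHLHE40 fell by 1.46 (adjusted p = 0.00148) and NDRG1 by 0.96 ± 0.09 (adjusted p = 0.000305). Against vehicle 7 rose and 2 fell, with a median of 0.37. HIF1A, an oxygen-regulated subunit of the factor, did not pass with all 9 arrays. It had 0.25 ± 0.09 under androgen (adjusted p = 0.163) and 0.03 ± 0.09 with celastrol against androgen (adjusted p = 0.918). With androgen plus celastrol against vehicle it had 0.27 ± 0.09 (adjusted p = 0.0787). Without vehicle replicate 3 it passed in the last of these (0.34, adjusted p = 0.0299). Without that array VEGFA (adjusted p = 0.0398) and KDM3A (0.0444) also passed with celastrol against androgen, while ADM against vehicle (0.0583) and EGLN3 under androgen (0.0856) no longer did. EPAS1, which encodes another oxygen-regulated subunit, rose with celastrol against androgen (0.64, adjusted p = 0.0177). It did not pass under androgen (-0.28, adjusted p = 0.320) or with androgen plus celastrol against vehicle (0.36, adjusted p = 0.121). For HIF1A and EPAS1 these arrays give the transcripts, and neither the proteins nor the activity of the factor was measured.

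**Figure D4:**
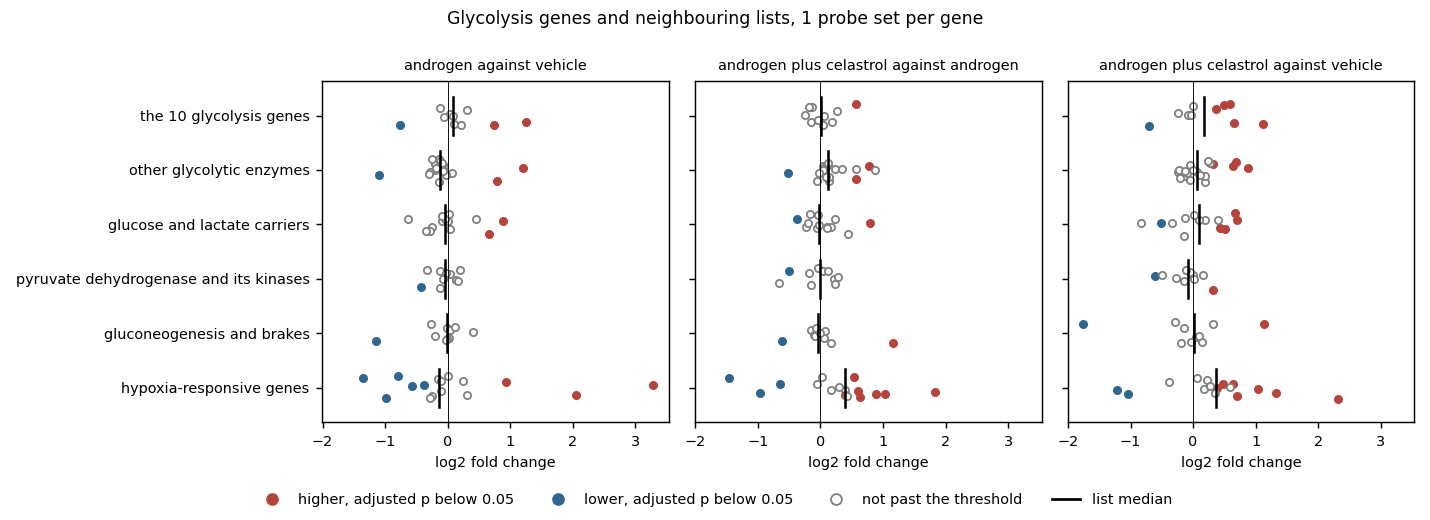
Log2 fold changes of the 10 glycolysis genes and of 5 neighbouring lists, 1 point per gene, in the 3 comparisons (red higher, blue lower, open not past adjusted p of 0.05; black bars are medians). The glycolysis genes lie between -0.77 and 1.25 under androgen and between -0.25 and 0.57 with celastrol against androgen, where the hypoxia-responsive genes have a median of 0.39.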

How the data were processed

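Per the labels' protocols, RNA of LNCaP cultures was hybridised to Affymetrix arrays. The authors deposited linear-scale intensities summarised with RMA, per the submitters' processing notes. The RMA version is not given in the sources used. Array batches were not tested, because scan dates were not analysed here. RMA brings arrays towards a common distribution, so that differences in total RNA are not measured. The deposited arrays still differed somewhat. Median intensities ran from 72.2 to 80.2, and upper quartiles from 332 (vehicle replicate 3) to 409 (androgen plus celastrol replicate 3). An exact repeat of a value among the 9 arrays occurred in 44.3% of probe sets. The number of arrays limits the precision, and 0.13 was the median SE on the log2 scale.

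The platform annotation pairs 19724 of the 22215 probe sets with 1 gene, 568 with several and 1923 with none; 19707 took symbols from RefSeq's gene table. A gene was counted by its single-gene probe set with the highest mean. Log2 was taken with a pseudocount of 0. Linear models over the 9 arrays used limma 3.58.1 (R 4.3.3, eBayes with no trend), which left 6 residual degrees of freedom, with Benjamini-Hochberg adjustment over all probe sets; the procedure was tested on simulated data. Isoenzyme ratios used an exact permutation test. Deviations of same-numbered androgen and vehicle arrays correlated at 0.39, 0.37 and 0.63, and those of the other comparisons at -0.27 to 0.22. Androgen 1 with vehicle 2 (0.41) and androgen 2 with vehicle 1 (0.30) correlated about as well, so that arrays 1 and 2 stood against array 3 rather than in pairs. All reported values are unpaired; a replicate block is an alternative. All members are named, and from each list up to 4 genes past the threshold and up to 2 others, fewer where they repeat. FOLH1, ENO3, PDK3, EGLN3, KDM3A and EPAS1 were named after their values were seen. Members and lists were chosen with earlier results of these data known. Alternatives are given in the closing section.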

Additional observations from a re-analysis of the deposited data

How the results depend on the processing

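Among 19 alternatives per comparison, the calls of HK1, HK2 and PFKM under androgen, and of ALDOA in both comparisons with celastrol, held in each. Those of HK2 and PFKM against vehicle with celastrol did too. Each alternative took HK2 by its brighter probe set or by the average of both. None used the dimmer one alone, which had 0.01 under androgen in the main fit (adjusted p = 0.989). LDHA passed under androgen with an intensity trend in the variance prior (adjusted p = 0.0451), making 4 members called. Against androgen, 3 members were called instead of 1 with a pseudocount of 50, with the dimmer 50% of probe sets left out and with the trend (ENO1 at 0.0301, 0.0333 and 0.0145, LDHA at 0.0449, 0.0460 and 0.0164); the cause was not tested. PFKP against vehicle with celastrol passed after quantile normalization (0.0269), with the pseudocount (0.0255), the filter (0.0278) and the trend (0.0387).

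A replicate block over all 9 arrays kept 3, 1 and 6 members called for androgen against vehicle, celastrol against androgen and androgen plus celastrol against vehicle, with 2023, 2397 and 4074 probe sets called (2333, 2792 and 4222 without it). A replicate block within the compared groups left 2189, 2077 and 1462 probe sets and 3, 1 and 3 members; HK1 (0.0612), PFKFB3 (0.0962) and ENO1 (0.201) were lost against vehicle, where numbers do not pair the arrays. Averaging probe sets by gene gave 1497, 1845 and 2725 calls, over 12165 genes. Leaving out 1 array gave 1552 to 2631, 1750 to 3919 and 3326 to 4365 probe sets, and 3, 1 and 4 to 6 members; the lowest were without androgen replicate 2 for the first (1552) and without androgen replicates 1, 2 and 3 for the second (1844, 1750 and 1820).

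Reversals concerned values that had not passed. PFKL was -0.040 under androgen after quantile normalization, and against vehicle with celastrol 0.054 with medians subtracted and 0.086 averaged. Leaving out 1 array, PFKL ranged over -0.15 to 0.15 under androgen, -0.15 to 0.030 with celastrol against androgen and -0.18 to 0.11 with androgen plus celastrol against vehicle; the first turned without androgen replicate 1 or 2 or vehicle replicate 3. PFKP under androgen was 0.017 with medians subtracted, and GPI with celastrol against androgen -0.011 after quantile normalization. LDHA with androgen plus celastrol against vehicle was 0.019 with medians subtracted, and -0.11 to 0.011 leaving out 1 array. Subtracting medians moved all probe sets by -0.08 under androgen, 0.02 with celastrol against androgen and -0.06 with androgen plus celastrol against vehicle. HK2 minus HK1 with averaged probe sets was -0.11, -0.054 and -0.16 in these comparisons; leaving out 1 array gave -0.11 to 0.10 with celastrol against androgen. PFKP minus PFKL ranged over -0.24 to 0.13 under androgen (turned without vehicle replicate 3) and -0.23 to 0.00062 with celastrol against androgen. List counts without vehicle replicate 3 were chosen after seeing the data.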
